A study of Mus musculus with 15 samples.

Results

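A set of 35 genes, out of 21669 named genes, was higher in libraries of naive B cells and plasmablasts than in activated B cells. These genes, spread over 16 chromosomes, were chosen by their values: at least 200 bases of exon, a mean of at least 3 RPKM in naive B cells (nB) and in plasmablasts (Pb) cultured with DMSO, and both means at least 3 times that of activated B cells (actB) cultured with DMSO, with 0.25 added to each mean. RPKM is the number of reads per kilobase of exon and per 1000000 reads counted, so that a level is a share of the library. The levels in nB, actB with DMSO and Pb with DMSO therefore describe how the genes were chosen and carry no test. *Myadm* lay just inside with its smaller ratio at 3.02, followed by *Hist1h1c* at 3.08, *Nr1d2* at 3.15 and *Nfic* at 3.17. Just outside were *Calcoco1* at 2.996, *Cyp39a1* at 2.94, *Bach1* at 2.89 and *Sepp1* at 2.88.

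All cells came from wild-type female C57BL/6J mice, and poly(A) RNA was sequenced from 5 groups of 3 libraries. The nB group was B cells depleted of CD43-positive cells, with no stimulation and no drug given in its labels. The actB (B220+GL7+CD138-) and Pb (CD138+) groups were sorted from cultures of such B cells in LPS, Il2 and Il5 with DMSO, the vehicle, or with GSK343, a small-molecule inhibitor of the histone H3 lysine 27 methyltransferase EZH2. For Pb with GSK343 the labels name Il6 in place of Il5, whereas the study's methods name IL-5 for all cultures, so if the labels hold, this cytokine cannot be told apart from the inhibitor in Pb with GSK343 against Pb with DMSO, nor from the cell type in Pb with GSK343 against actB with GSK343. The labels number the replicates m1 to m3 without saying whether each is a mouse of its own, and p-values measure the spread between these samples.

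The libraries held 19421830 to 26307413 counted reads, and a count of 0 allows up to 3 reads, or 0.114 to 0.154 reads per 1000000, which covers counting error only. Replicates 1 and 2 of nB differed by less than sampling noise and were counted as 1 library, which leaves 2 nB libraries of 14 in all. Marker sums followed the labels of the groups for plasmablast and naive B cell markers. The 7 plasmablast markers other than *Sdc1* summed to 3122 to 3429 RPKM in Pb and to 244 to 688 RPKM in nB and actB. The 7 naive B cell markers summed to 3138 to 3186 RPKM in nB and to at most 1634 elsewhere. Markers of activated B cells were not highest in actB: 6 genes summed to 502 to 544 RPKM there, 616 to 707 in Pb and 211 to 241 in nB. The nB libraries also held macrophage and monocyte markers at 276 to 372 RPKM summed over 11 genes, against 62.8 to 98.2 in actB and 9.07 to 15.5 in Pb. Markers of other cells were also highest in nB: erythroid markers summed to 82.4 to 306 RPKM there and to at most 18.9 in any cultured library, T cell markers to 43.4 to 46.3 and at most 20.3, NK markers to 18.9 to 20.9 and at most 3.11, neutrophil markers to 21.9 to 25.5 and at most 1.02, platelet markers to 4.19 to 4.42 and at most 0.865, and stromal and endothelial markers to 121 to 134 and at most 46.3. Most of the stromal and endothelial sum in nB was *Pecam1*, at 110.3 to 111.9 RPKM, then *Vcam1*, at 8.63 to 22.7, while *Col1a1* read at most 0.0647. Dendritic cell markers summed to 72.2 to 87.5 RPKM in nB and to 70.8 to 233 in culture, and moved in different directions. *Bst2* read 27.8 to 33.2 RPKM in nB and 47.3 to 224 in culture. *Itgax* read 21.3 to 24.4 in nB and at most 0.298 in culture, and *Siglech*, *Xcr1* and *Zbtb46* were also lower in culture. *Flt3* and *Batf3* were wholly below nB in Pb only. In actB with DMSO the dendritic cell sum was above that of nB, at 95.8 to 160 RPKM. The sums of the other cells apart from dendritic cells fell together with the loss on activation of the 35 genes. What part any of these markers had in that loss was not tested. Within actB with DMSO 16 of the 35 genes had a library with under 100 reads, and the smallest count was 15 reads, for *Ccl4*.

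A naive B cell is a resting cell that recirculates between spleen, lymph nodes and bone marrow. Toll-like receptor ligands such as LPS turn it into a growing, dividing blast, and a part of the blasts become plasmablasts, which express CD138, secrete antibody and still divide. EZH2, the enzyme of Polycomb repressive complex 2 that places H3K27me3, is abundant in dividing B cells, and its mark is found at silent promoters. The 35 genes mix several functions: immediate-early regulators, chemokines and their receptors, surface and signalling proteins, and regulators of chromatin and transcription.

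The loss on activation and the regain in Pb differed widely in size among the 35 genes. By the study's methods, nB were purified from spleen with magnets, whereas actB and Pb were sorted by flow cytometry from cultures. In every ratio of nB to actB, activation therefore cannot be told apart from culture and handling. The ratio of nB to actB with DMSO ran from 3.02 for *Myadm* to 379.8 for *Fos*, and the ratio of Pb to actB with DMSO ran from 3.15 for *Nr1d2* to 43.3 for *Ly6c2*. Relative to nB, the mean in Pb with DMSO was lower for 17 genes and the same or higher for 18, with a median ratio of 1.02, and 16 genes came within 1.5-fold of their nB level. *Fos* regained the least, to 0.0126 of its nB level, and *Dusp1*, at 0.179, stood next to it. *Ly6c2* at 8.31 times, *Sdc1* at 5.50 times and *Pik3cg* at 3.64 times their nB level went furthest past it. In bulk libraries such as these, fewer cells with a transcript and less of it per cell cannot be told apart. The pattern was met by a small share of the genes that made either move alone: 608 genes had the loss, of which the 35 are 5.76%, and 301 genes had the gain, of which they are 11.6%.

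**Figure D1:**
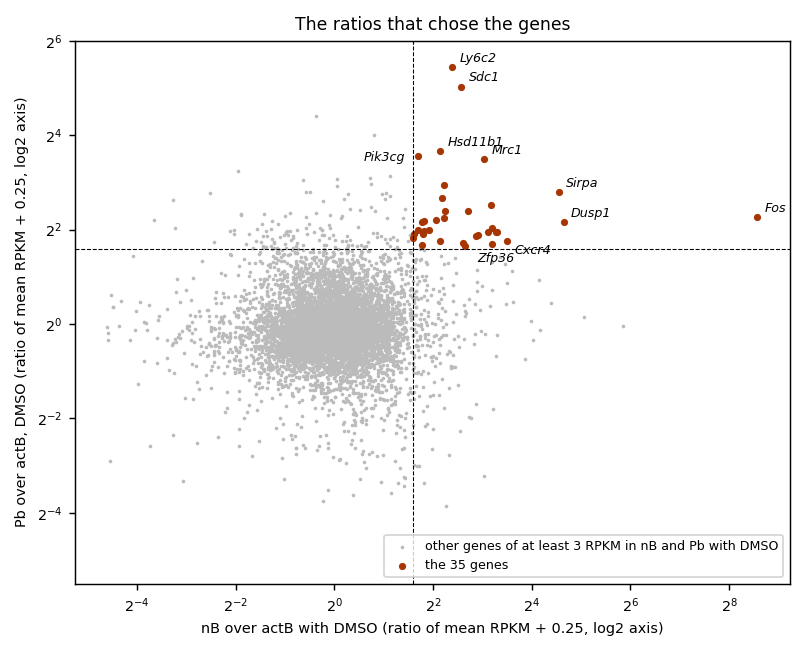
Ratio of the mean RPKM in nB to that in actB with DMSO (x axis, log2) and of Pb with DMSO to actB with DMSO (y axis, log2), 0.25 added to each mean, for the 8000 genes of at least 3 RPKM in nB and in Pb with DMSO. Dashed lines mark ratios of 3, and the 35 genes fill the upper right corner, with *Fos* far to the right at 379.8 and *Ly6c2* at the top at 43.3.

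**Figure D2:**
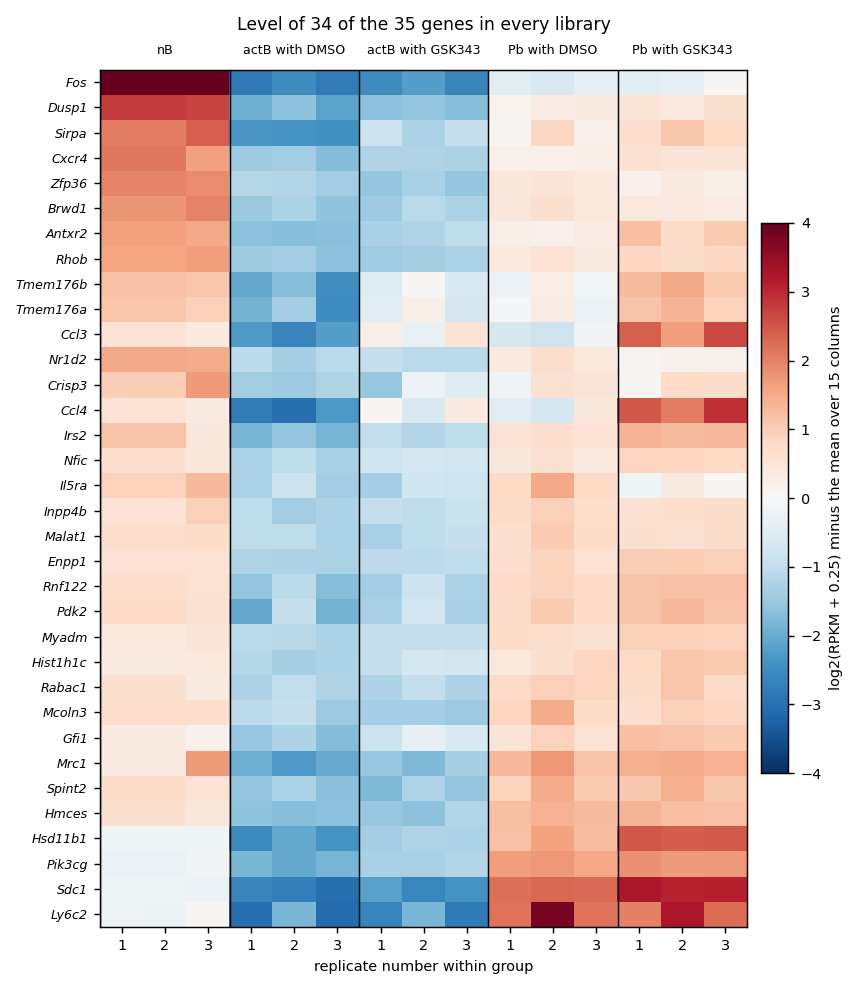
Level of each of 34 of the 35 genes in the 15 deposited columns as log2(RPKM + 0.25) minus the gene's mean over the columns, ordered by the ratio of Pb with DMSO to nB (lowest at the top), with a colour scale that ends at 4. The 6 actB columns are low for nearly every gene, and *Ccl3* and *Ccl4* stand out in Pb with GSK343.

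Of the immediate-early genes, whose transcripts rise within minutes of a stimulus, 4 were among the 35: *Fos*, a subunit of the transcription factor AP-1; *Dusp1*, a phosphatase that inactivates MAP kinases; *Zfp36*, which binds AU-rich elements and speeds mRNA decay; and *Rhob*, a small GTPase of endosomes. Their promoters are shown for the pair with the deepest loss, with 250 bases before the start and 50 after it, as RefSeq gives them on GRCm38.p6, 5′ to 3′ on the strand of the gene. Capitals mark TATAAA in the *Fos* promoter at chr12:85473640-85473939 on the plus strand, and TGACGTCA, the cyclic AMP response element (CRE), and CACGTG, an E-box, in the *Dusp1* promoter at chr17:26508423-26508722 on the minus strand.
Fos: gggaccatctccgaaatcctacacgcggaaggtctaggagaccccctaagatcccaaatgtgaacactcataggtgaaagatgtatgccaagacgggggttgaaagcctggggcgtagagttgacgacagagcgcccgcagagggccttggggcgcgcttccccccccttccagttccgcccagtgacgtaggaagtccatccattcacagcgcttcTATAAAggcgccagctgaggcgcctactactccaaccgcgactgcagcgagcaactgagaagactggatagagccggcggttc
Dusp1: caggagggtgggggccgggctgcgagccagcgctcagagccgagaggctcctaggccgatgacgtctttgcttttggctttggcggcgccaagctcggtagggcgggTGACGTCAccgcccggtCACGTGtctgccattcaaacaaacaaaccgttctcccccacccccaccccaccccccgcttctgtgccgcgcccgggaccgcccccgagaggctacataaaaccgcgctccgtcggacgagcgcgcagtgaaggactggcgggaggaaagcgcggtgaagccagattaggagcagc
The CRE letters were found in 2.03% of 27025 genes with a promoter entry, the E-box in 8.09% and TATAAA in 15.7%, each searched on both strands. *Dusp1* was the sole member among the 31 with an entry to hold the CRE letters.

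*Fos* read 309 and 308 RPKM in the 2 nB libraries, 0.505, 0.674 and 0.512 in actB with DMSO and 3.69, 3.27 and 3.996 in Pb with DMSO. With GSK343 it read 0.708, 0.911 and 0.610 in actB and 3.66, 3.82 and 5.22 in Pb. The nB libraries stood far above all others, while every Pb library was above every actB library. *Dusp1* read 107 and 100.3 RPKM in nB, 3.78, 4.80 and 3.27 in actB with DMSO, 16.8, 19.1 and 19.7 in Pb with DMSO, 4.76, 4.93 and 4.58 in actB with GSK343 and 22.3, 20.7 and 24.3 in Pb with GSK343. Its order was that of *Fos*, with the Pb level closer to nB. *Zfp36*, the most abundant of the 35 in nB, read 513 and 483 RPKM there, 58.7, 57.2 and 49.4 in actB with DMSO and 176, 186 and 173 in Pb with DMSO. With GSK343, *Zfp36* read 43.5, 51.7 and 43.9 RPKM in actB and 149, 166 and 149.9 in Pb, and in Pb all 3 of these lay below all 3 with DMSO. *Rhob* averaged 64.1 ± 2.33 RPKM (SD, n = 2) in nB, 7.13 ± 0.647 (n = 3) in actB with DMSO and 28.2 ± 2.40 (n = 3) in Pb with DMSO.

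The wider immediate-early list puts these 4 genes in context. Of its 36 genes, 21 had the loss on activation, and besides the 4 members 12 were above actB in Pb with DMSO by less than 3 times and 5 were not above it. The 4 of 21 stand beside 5.76% of all 608 genes with the loss. *Fosb* averaged 145 RPKM in nB, 0.0737 in actB with DMSO and 0.279 in Pb with DMSO, and *Junb* averaged 206, 40.3 and 26.6 RPKM. In the libraries that had no part in the choice, Pb with GSK343 against actB with GSK343, 35 genes of the list were tested. Of these 20 were higher and 10 lower, beside 26.4% and 44.2% of all genes tested. The median log2 fold change was 0.63 for the list against -0.14 over all genes tested.

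Chemokines and cytokine receptors gave 4 of the 35 genes. *Cxcr4* encodes the receptor of CXCL12, which draws plasma cells to the bone marrow. *Ccl3* and *Ccl4* encode secreted chemokines that attract other leukocytes, and *Il5ra* encodes the alpha chain of the IL-5 receptor. The promoters of *Cxcr4* (chr1:128592250-128592549, minus strand) and *Ccl3* (chr11:83649329-83649628, minus strand) are shown as a chemokine receptor and a chemokine whose changes with GSK343 differed in size. Capitals mark TATAAA and the overlapping TTTATA, its match on the opposite strand, in *Cxcr4*, and ACTTCC in *Ccl3*, which is the ETS core GGAAGT read on the opposite strand.
Cxcr4: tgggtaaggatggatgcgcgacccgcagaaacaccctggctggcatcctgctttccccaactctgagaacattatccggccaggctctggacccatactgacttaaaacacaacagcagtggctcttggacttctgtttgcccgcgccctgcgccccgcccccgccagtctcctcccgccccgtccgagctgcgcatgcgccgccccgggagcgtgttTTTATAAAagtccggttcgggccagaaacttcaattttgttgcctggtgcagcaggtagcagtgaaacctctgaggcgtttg
Ccl3: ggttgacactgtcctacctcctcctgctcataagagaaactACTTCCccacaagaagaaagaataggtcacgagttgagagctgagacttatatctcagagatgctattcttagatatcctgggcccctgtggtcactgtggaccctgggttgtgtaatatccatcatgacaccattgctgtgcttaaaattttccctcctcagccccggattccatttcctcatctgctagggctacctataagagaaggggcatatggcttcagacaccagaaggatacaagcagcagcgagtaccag

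*Cxcr4* read 342 and 246 RPKM in nB, 28.7, 29.8 and 23.2 in actB with DMSO and 90.9, 90.97 and 94.2 in Pb with DMSO. With GSK343 the levels were 33.8, 33.9 and 32.8 RPKM in actB and 120.2, 113 and 113 in Pb, in each case above all 3 libraries with DMSO. Of 64 homing, adhesion and G protein coupled receptor genes, 19 had the loss on activation. *Cxcr4* was the only one among them to meet the whole rule, beside 5.76% of all 608 genes with the loss. In Pb with DMSO 15 of the 19 were not above actB. The sphingosine-1-phosphate receptor *S1pr1* averaged 139.6 RPKM in nB, 3.96 in actB with DMSO and 4.43 in Pb with DMSO, and *Ccr7*, the receptor for lymph node entry, averaged 207, 40.9 and 5.79 RPKM. Of the 59 genes of this list that were tested in Pb with GSK343 against actB with GSK343, 15 were higher and 34 lower. Of all genes tested 26.4% were higher and 44.2% lower. The median log2 fold change was -0.41 for the list against -0.14 over all genes tested.

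*Ccl4* read 13.2 and 11.2 RPKM in nB, 1.05, 0.858 and 1.59 in actB with DMSO and 6.53, 5.26 and 11.9 in Pb with DMSO. With GSK343 it read 9.02, 5.71 and 11.6 RPKM in actB and 49.7, 36.8 and 67.4 in Pb. *Ccl3* moved with it, from 7.53 and 6.63 RPKM in nB to 0.843, 0.594 and 0.895 in actB with DMSO and 3.15, 2.70 and 4.55 in Pb with DMSO. With GSK343, *Ccl3* read 6.14, 4.01 and 7.38 RPKM in actB and 27.4, 16.6 and 32.2 in Pb, and for both chemokines the libraries with GSK343 lay wholly above those with DMSO in each cell type. Both chemokines are also made by macrophages, T cells and NK cells. The T cell and NK lists were far higher in nB than in culture, as given above, and so moved with the chemokines' loss on activation. In the cultured libraries the T cell list summed to 4.63 to 6.16 RPKM in actB with DMSO, 6.80 to 8.81 in actB with GSK343, 9.57 to 15.1 in Pb with DMSO and 14.8 to 20.3 in Pb with GSK343, and most of the sum in Pb was *Cd28*, which is also a plasma cell gene, at 7.93 to 17.2 RPKM. *Cd3e* had no read in Pb and at most 0.0286 RPKM in actB, and the NK list summed to at most 3.11 RPKM in any cultured library. Of 11 macrophage markers 2 were called higher with GSK343 in actB and 0 in Pb (limma), against 8.2% and 7.9% of all genes tested. In actB *Itgam*, the integrin chain CD11b, read 3.50 to 4.66 RPKM with DMSO and 6.603 to 12.8 with GSK343. *Adgre1*, which encodes F4/80, read 0.127 to 0.168 with DMSO and 0.405 to 0.486 with GSK343. *Fcgr3* was also higher with GSK343, at 3.67 to 3.94 against 2.72 to 3.28 RPKM. *Cd68* went the other way, at 5.86 to 6.59 RPKM with DMSO and 4.98 to 5.68 with GSK343. These markers did not overlap between the treatments in actB and were named after their values were seen, and the others of the list overlapped. The sum of the macrophage list, most of which was *Mpeg1* in actB, overlapped between the treatments in each cell type. What part these T cell and macrophage markers have in the chemokine levels was not tested.

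*Il5ra* read 16.6 and 21.8 RPKM in nB, 3.46, 4.64 and 3.15 in actB with DMSO and 15.4, 25.4 and 15.4 in Pb with DMSO. With GSK343 it read 3.24, 4.97 and 4.84 RPKM in actB and 7.64, 11.2 and 9.32 in Pb, where all 3 libraries lay below all 3 with DMSO. Replicate 2 of Pb with DMSO was well above the other two.

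Other surface and signalling proteins and enzymes follow, grouped by hand for the description. *Sdc1* encodes CD138, the protein on which Pb were sorted and which actB were sorted to lack, so its contrast between actB and Pb was set by the sort. It read 5.22 and 5.12 RPKM in nB, 0.769, 0.694 and 0.532 in actB with DMSO and 28.8, 30.4 and 29.8 in Pb with DMSO. With GSK343, *Sdc1* read 1.16, 0.774 and 0.962 RPKM in actB and 58.8, 53.3 and 53.7 in Pb, so that Pb with GSK343 was the highest group without overlap. It was the sole member among 8 plasmablast markers, since the other 7 did not have the loss on activation.

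*Ly6c2*, a GPI-anchored surface protein of the Ly6 family, read 21.3 and 26.1 RPKM in nB, 2.90, 6.94 and 2.73 in actB with DMSO and 114, 349 and 113 in Pb with DMSO. With GSK343 it read 3.70, 6.94 and 3.34 RPKM in actB and 102, 238 and 118 in Pb. Replicate 2 was the highest in each of the 4 cultured groups, and *Ly6c2* may share reads with its near copy *Ly6c1*, so its level is uncertain. *Pik3cg* encodes the p110γ catalytic subunit of phosphoinositide 3-kinase, which G protein coupled receptors activate. It read 20.8 and 22.9 RPKM in nB, 6.83, 5.86 and 6.76 in actB with DMSO and 80.02, 83.4 and 73.9 in Pb with DMSO. With GSK343, *Pik3cg* read 10.1, 9.96 and 11.04 RPKM in actB, above all libraries with DMSO, and 89.2, 82.4 and 83.9 in Pb, where the groups overlapped. *Hsd11b1*, the dehydrogenase that regenerates active glucocorticoid, read 8.11 and 8.06 RPKM in nB, 1.37, 1.999 and 1.54 in actB with DMSO and 20.9, 28.3 and 21.8 in Pb with DMSO. With GSK343 it read 3.31, 3.84 and 3.73 RPKM in actB and 52.04, 49.5 and 51.1 in Pb, again without overlap with DMSO in either.

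*Irs2*, an adaptor of the insulin and IL-4 receptors, averaged 25.2 ± 8.37 RPKM (SD, n = 2) in nB, 3.94 ± 0.494 (n = 3) in actB with DMSO and 21.6 ± 0.842 (n = 3) in Pb with DMSO. With GSK343 *Irs2* averaged 6.56 ± 0.499 RPKM in actB and 34.8 ± 1.42 in Pb (n = 3 each). *Spint2*, an inhibitor of serine proteases, averaged 20.9 ± 1.46 RPKM in nB, 4.49 ± 0.721 in actB with DMSO and 29.96 ± 6.65 in Pb with DMSO. *Inpp4b*, *Enpp1* and *Antxr2* lay outside the rule for named genes and are given for completeness. *Inpp4b*, a phosphoinositide 4-phosphatase, averaged 5.71, 1.25 and 5.74 RPKM in nB, actB with DMSO and Pb with DMSO. In the same order *Enpp1*, an ectoenzyme that hydrolyses nucleotides, averaged 12.6, 3.38 and 13.96 RPKM. *Antxr2*, a receptor that binds anthrax toxin and collagen, averaged 12.2, 1.06 and 4.79 RPKM.

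Genes best known from myeloid cells were also present. *Sirpa* encodes the inhibitory receptor for CD47, *Mrc1* the macrophage mannose receptor, and *Tmem176a* and *Tmem176b* a pair of 4-pass membrane proteins of dendritic cells and macrophages. The *Tmem176a* promoter at chr6:48841233-48841532, plus strand, is shown because it overlaps promoter windows of *Tmem176b*. Capitals mark GGAAAACCCC, a match to the NF-κB motif on the opposite strand.
Tmem176a: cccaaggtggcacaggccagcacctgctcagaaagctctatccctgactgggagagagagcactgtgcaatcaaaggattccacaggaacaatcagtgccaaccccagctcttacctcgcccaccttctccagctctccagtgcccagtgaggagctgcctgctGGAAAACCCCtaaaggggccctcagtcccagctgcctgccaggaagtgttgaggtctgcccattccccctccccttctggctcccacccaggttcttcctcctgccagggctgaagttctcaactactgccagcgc
A match to this motif was found in the promoters of 3 of the 31 members with an entry, *Myadm*, *Tmem176a* and *Tmem176b*, and in 1.89% of all genes with an entry. The windows of *Tmem176a* and *Tmem176b* overlap, so that these are not separate matches.

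*Tmem176b* read 14.8 and 13.9 RPKM in nB, 1.36, 1.78 and 0.970 in actB with DMSO and 5.36, 7.92 and 5.90 in Pb with DMSO. With GSK343 it read 4.42, 6.64 and 4.06 RPKM in actB and 15.7, 18.7 and 13.4 in Pb, above DMSO without overlap in each. *Tmem176a* averaged 9.54 ± 0.612 RPKM (SD, n = 2) in nB, 1.07 ± 0.474 (n = 3) in actB with DMSO, 4.62 ± 0.995 (n = 3) in Pb with DMSO, 3.82 ± 1.36 (n = 3) in actB with GSK343 and 10.4 ± 1.63 (n = 3) in Pb with GSK343. The pair kept the same order of groups. *Sirpa* read 21.5 and 27.2 RPKM in nB, 0.783, 0.768 and 0.726 in actB with DMSO and 5.32, 9.11 and 5.78 in Pb with DMSO. With GSK343, *Sirpa* read 2.66, 1.94 and 2.43 RPKM in actB, wholly above DMSO, and 8.16, 10.9 and 8.87 in Pb, where the groups overlapped. *Mrc1* read 2.22 and 6.05 RPKM in nB, 0.246, 0.148 and 0.225 in actB with DMSO, 4.48, 6.13 and 4.004 in Pb with DMSO, 0.429, 0.320 and 0.520 in actB with GSK343 and 4.89, 5.09 and 4.82 in Pb with GSK343.

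Macrophage marker genes were read in the nB libraries, and their part in the nB levels of these 4 genes was not tested. The complement gene *C1qa* read 9.39 to 17.4 RPKM in nB, and *Csf1r*, the receptor of the macrophage growth factor, read 9.16 to 16.8 RPKM. In Pb *C1qa* and *C1qc* had no read in any of the 6 libraries and *Csf1r* read at most 0.0426 RPKM. Other markers of the list were read in Pb: *C1qb* at 0.145 to 0.660 RPKM, *Mpeg1* at 2.34 to 6.94, *Cd68* at 3.14 to 5.43 and *Fcgr3* at 1.25 to 1.75. In the same libraries *Mrc1* read up to 6.13 RPKM and no less than 4.004, and *Sirpa* read 5.32 to 10.9 RPKM. The part of the macrophage markers in these Pb levels was not tested.

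Regulators in the nucleus formed the next group. *Malat1*, a long noncoding RNA of nuclear speckles, averaged 238 ± 5.96 RPKM (SD, n = 2) in nB, 67.5 ± 6.27 (n = 3) in actB with DMSO and 255 ± 40.4 (n = 3) in Pb with DMSO. *Hist1h1c*, a linker histone H1 gene, averaged 26.1 ± 0.628 RPKM in nB, 8.25 ± 0.549 in actB with DMSO and 31.4 ± 4.61 in Pb with DMSO. *Hmces*, a protein that shields abasic sites in DNA, averaged 19.7 ± 1.61, 4.09 ± 0.134 and 33.01 ± 2.05 RPKM in these groups. *Nfic*, a CCAAT-binding transcription factor of the NFI family, averaged 9.72 ± 1.10, 2.72 ± 0.306 and 9.18 ± 0.798 RPKM. The circadian repressor *Nr1d2*, known as REV-ERBβ, read 8.84 and 8.67 RPKM in nB, 1.29, 1.01 and 1.25 in actB with DMSO and 3.90, 4.88 and 3.99 in Pb with DMSO. With GSK343, *Nr1d2* read 1.41, 1.25 and 1.25 RPKM in actB and 3.19, 3.35 and 3.36 in Pb, wholly below Pb with DMSO. Of 24 circadian and hormone-responsive regulators 4 had the loss on activation and *Nr1d2* was the sole member. *Gfi1*, a zinc-finger repressor, and *Brwd1*, a bromodomain protein, were outside the rule for named genes, and averaged 3.83, 0.969 and 5.23 RPKM for *Gfi1* and 28.8, 2.65 and 10.9 RPKM for *Brwd1* in nB, actB with DMSO and Pb with DMSO.

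The remaining genes act in membrane traffic, metabolism and protein turnover. *Rabac1*, an acceptor of prenylated Rab GTPases, averaged 58.5 ± 8.49 RPKM (SD, n = 2) in nB, 18.6 ± 1.63 (n = 3) in actB with DMSO and 75.1 ± 5.67 (n = 3) in Pb with DMSO. *Myadm*, a protein of membrane rafts, averaged 41.4 ± 2.15, 13.4 ± 0.922 and 48.1 ± 2.29 RPKM, and *Rnf122*, a RING-finger ubiquitin ligase, averaged 11.4 ± 0.518, 2.57 ± 0.710 and 12.8 ± 0.690 RPKM in the same groups. Outside the rule for named genes, *Pdk2*, a kinase that inhibits pyruvate dehydrogenase, averaged 6.92, 1.29 and 7.88 RPKM, and *Mcoln3*, an endolysosomal cation channel, averaged 4.96, 1.22 and 6.44 RPKM. *Crisp3*, a cysteine-rich secretory protein, averaged 12.2, 1.62 and 5.93 RPKM, and its annotated exons overlap those of *Crisp1* on the same strand, so its level is uncertain. The lists of quiescence genes, B cell receptor genes, interferon genes, lysosomal genes, secretory pathway genes and membrane transporters held none of the 35. As drawn up, the lysosomal and transporter lists did not include *Mcoln3*. The loss on activation was seen in 18 of 45 quiescence genes and 12 of 36 B cell receptor genes. The 35 are 5.76% of all 608 genes with the loss, so with lists of this size these absences are not read as a result.

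Whether the regain in Pb also held in libraries that had no part in the choice was asked in the cultures with GSK343. All 35 genes were higher in Pb with GSK343 than in actB with GSK343 at an adjusted p under 0.05 (limma), against 26.4% of 11299 genes tested that were called higher and 44.2% called lower. Their log2 fold changes ran from 1.07 for *Il5ra* to 5.52 for *Sdc1*, with a median of 2.02 against -0.14 over all genes tested, and 19 genes reached 2 or more. The call for *Sdc1* is not a test of the regain, since the sort on CD138 set its contrast. The highest adjusted p was 0.00315, for *Crisp3*. For each of the 35, every Pb library was above every actB library, which was so for 27.7% of all genes tested. All 35 had passed the filter on low values, which their minimum of 3 RPKM ensures. These libraries carry the replicate numbers of the libraries with DMSO. The 266 genes outside the 35 that had the gain in Pb with DMSO were likewise all higher, so the call is not particular to the 35. Median scaling of the libraries, which moved the median of all genes from -0.14 to 0.00, called 3832 genes higher and 3871 lower in place of 2978 and 4992, and left the 35 calls. Among the 572 other genes with the loss on activation that were tested, 120 were higher and 280 lower.

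Between Pb and actB with GSK343, *Sdc1*, *Ly6c2*, *Hsd11b1* and *Pik3cg* differed most. For *Sdc1* the sort on CD138 set the contrast, so its log2 fold change of 5.52 ± 0.11 (standard error), or 46.02-fold, carries no test. The log2 fold change was 4.93 ± 0.48 for *Ly6c2* (adjusted p = 1.46e-06 by limma), 3.72 ± 0.13 for *Hsd11b1* (adjusted p = 1.29e-10) and 3.01 ± 0.07 for *Pik3cg* (adjusted p = 1.65e-11). With *Sdc1*, these were the 4 genes that reached 3 on the log2 scale. *Mrc1* followed at 2.96 ± 0.27, *Spint2* at 2.72 ± 0.18, *Hmces* at 2.69 ± 0.10, *Ccl4* at 2.53 ± 0.33, *Irs2* at 2.37 ± 0.14 and *Rnf122* at 2.34 ± 0.15, with adjusted p from 3.41e-10 for *Hmces* to 1.71e-05 for *Ccl4*. The immediate-early members were 4.50-fold higher for *Fos*, 4.52-fold for *Dusp1*, 4.39-fold for *Rhob* and 3.33-fold for *Zfp36*. *Cxcr4* was 3.42-fold higher and *Malat1* 3.34-fold.

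**Figure D3:**
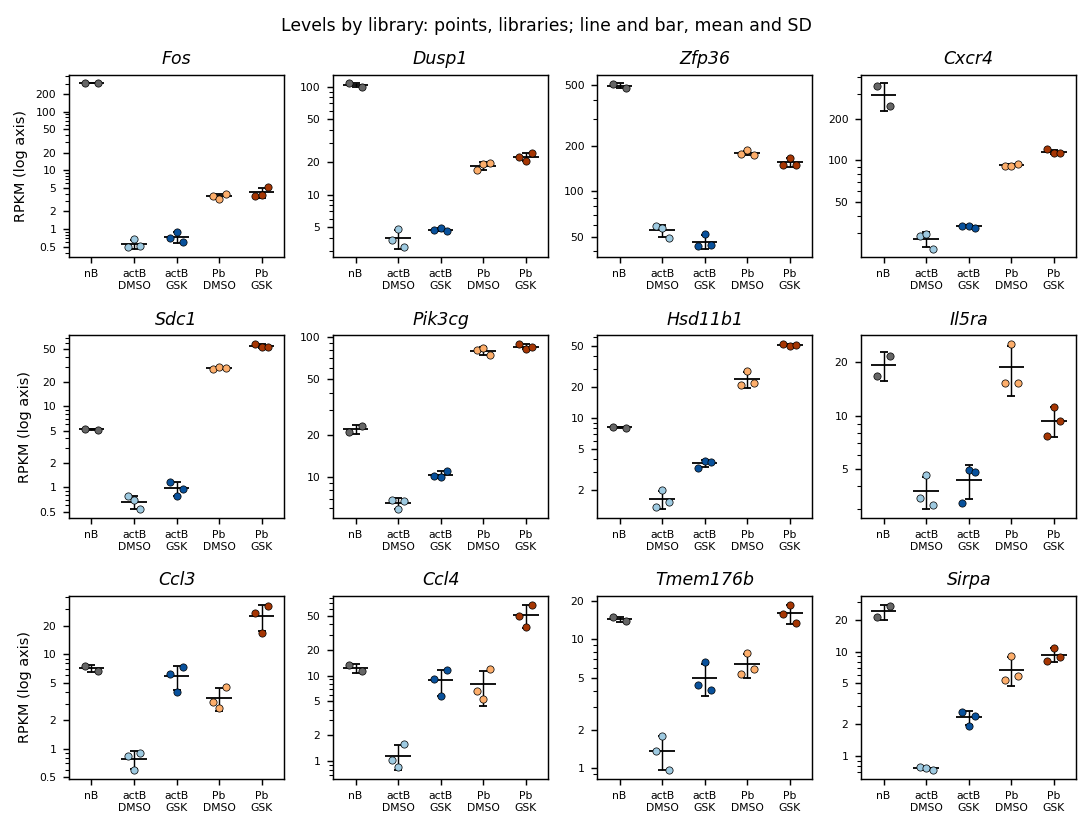
RPKM (log axis) of 12 of the genes in nB (n = 2 libraries) and in actB and Pb with DMSO or GSK343 (n = 3 each), with points for libraries and bars for the mean and SD. In every panel Pb lies above actB under the same treatment, and *Ccl3* and *Ccl4* rise from DMSO to GSK343 in both cell types.

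With the libraries with GSK343 in place of those with DMSO, not all of the 35 genes kept both ratios at 3 or more. They were chosen for ratios of at least 3 with DMSO, so some near 3 could fall below it in any new libraries. What part GSK343 had in this was not tested. Of the 35 genes, 30 were at least 3 times higher in Pb with GSK343 than in actB with GSK343, against 3.45% of all genes tested, and 25 were at least 3 times higher in nB than in actB with GSK343, against 6.42%. Both held for 22 genes, and the share of all genes tested that met both was not computed. *Ccl3* and *Ccl4* had the smallest ratios of nB to actB with GSK343, 1.23 and 1.42, and were the 2 genes for which the nB libraries did not all lie above those of actB with GSK343, as they did for 33 of the 35 and for 37.4% of all genes tested. The ratio was 1.83 for *Gfi1*, 2.05 for *Pik3cg*, 2.15 for *Hsd11b1* and 2.24 for *Hist1h1c*. *Il5ra* had the smallest ratio of Pb to actB with GSK343, at 2.09, followed by *Nr1d2* at 2.28 and *Crisp3* at 2.34.

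GSK343 raised several of the 35 genes in actB and lowered none. At an adjusted p under 0.05 (limma), 14 were higher with GSK343 than with DMSO, against 8.2% of all genes tested, and 0 were lower, against 2.16%, with *Zfp36* alone lower at an unadjusted p under 0.05 and by edgeR with TMM. The median log2 fold change was 0.28 against 0.03 over all genes tested. For 18 genes every library with GSK343 was above every library with DMSO, against 18.3% of all genes tested, and the reverse held for 0 genes, against 7.52%. A low mean in actB with DMSO was a condition of the choice, which by itself favours a higher ratio here. The 572 other genes with the loss on activation that were tested, chosen on the same low mean, were higher in 19.8%, and the other 266 with the gain in Pb in 25.9%. Of all genes tested 926 were higher and 244 lower, against 690 and 370 under median scaling, where 12 of the 35 were higher, and 1666 and 708 when replicate numbers entered as a block, where 16 of the 35 were higher.

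The chemokines led in actB. *Ccl4* rose 6.27-fold with a log2 fold change of 2.65 ± 0.33 (adjusted p = 0.000586) and *Ccl3* rose 5.82-fold at 2.54 ± 0.27 (adjusted p = 0.000268). *Tmem176b* rose 3.26-fold at 1.71 ± 0.22 (adjusted p = 0.000702), and *Tmem176a* rose 3.11-fold at 1.64 ± 0.27 (adjusted p = 0.00313). *Sirpa* rose 2.55-fold at 1.35 ± 0.18 (adjusted p = 0.000996) and *Hsd11b1* rose 2.08-fold at 1.05 ± 0.13 (adjusted p = 0.000518). In all 6 genes each replicate number was higher with GSK343. Smaller rises were those of *Gfi1* at 0.90, *Irs2* at 0.71, *Pik3cg* at 0.66, *Antxr2* at 0.50, *Hist1h1c* at 0.46, *Nfic* at 0.43, *Sdc1* at 0.41 and *Myadm* at 0.21 on the log2 scale. *Sdc1* (adjusted p = 0.0422) and *Myadm* (adjusted p = 0.0302) lost the call under median scaling and under quantile normalization. *Sdc1* also lost it without replicate 2 or 3 of DMSO or replicate 1 or 3 of GSK343 (adjusted p up to 0.148), and *Myadm* without replicate 3 of DMSO or any replicate of GSK343 (up to 0.114). *Hist1h1c* (adjusted p = 0.0227) lost it without replicate 2 or 3 of either treatment (up to 0.0817), and *Antxr2* (adjusted p = 0.0132) without replicate 3 of actB with GSK343, at 0.0576. *Antxr2* also lost it under quantile normalization (adjusted p = 0.109), *Sdc1* with a pseudocount of 1 (0.0677) or no filter (0.0693), and *Myadm* by edgeR with TMM (0.0670) or RLE (0.0680). With the compared groups alone the call was lost for *Hist1h1c* (adjusted p = 0.0524), *Gfi1* (0.0599), *Tmem176a* (0.0610), *Nfic* (0.0661), *Myadm* (0.139) and *Sdc1* (0.216).

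The immediate-early members did not pass the test in actB. *Fos* had a log2 fold change of 0.28 ± 0.14 (adjusted p = 0.247), *Dusp1* of 0.27 ± 0.11 (adjusted p = 0.159) and *Rhob* of 0.17 ± 0.08 (adjusted p = 0.180). Without replicate 2 of actB with DMSO *Dusp1* passed, at an adjusted p of 0.0141, as did *Rnf122* (0.0343 against 0.347) and *Pdk2* (0.00683 against 0.217). *Zfp36* had -0.25 ± 0.08 (adjusted p = 0.0717), and it was called lower with the replicate number as a block (adjusted p = 0.0152) and without replicate 3 of actB with DMSO (0.0366) or replicate 2 of actB with GSK343 (0.0206). *Cxcr4* had 0.31 ± 0.11 (adjusted p = 0.0944) and was called higher with the block (adjusted p = 0.0172), as was *Mrc1*, at 0.56 ± 0.27 (adjusted p = 0.225, and 0.0450 with the block). *Malat1* at 0.02 ± 0.11, *Rabac1* at 0.00 ± 0.12 and *Spint2* at 0.00 ± 0.18 lay close to 0.

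In Pb *Ccl3*, *Ccl4*, *Tmem176b*, *Tmem176a*, *Hsd11b1* and *Sdc1* rose the most with GSK343, and *Il5ra* and *Nr1d2* fell. At an adjusted p under 0.05 (limma), 12 of the 35 genes were higher, against 7.9% of all genes tested, and 2 were lower, against 5.0%. The median log2 fold change was 0.26 against 0.00 over all genes tested. For 17 genes every library with GSK343 was above every library with DMSO, against 18.8%, and for 3 genes every library was below, against 15.3%. Here a high mean in Pb with DMSO was a condition of the choice, which by itself favours a lower ratio. Of the 572 other genes with the loss on activation that were tested 14.3% were higher, and of the 266 others with the gain in Pb 19.5%. When replicate numbers entered as a block, 1541 of all genes tested were higher and 1210 lower, in place of 893 and 565, and 16 of the 35 were higher. The Il6 of the labels stands beside GSK343 in each of these differences.

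*Ccl3* rose 6.80-fold in Pb with a log2 fold change of 2.77 ± 0.27 (adjusted p = 0.000134), and *Ccl4* rose 6.51-fold at 2.70 ± 0.33 (adjusted p = 0.000391). *Tmem176b* rose 2.44-fold at 1.29 ± 0.22 (adjusted p = 0.00282), *Tmem176a* rose 2.21-fold at 1.14 ± 0.27 (adjusted p = 0.0162) and *Hsd11b1* rose 2.16-fold at 1.11 ± 0.13 (adjusted p = 0.000275). *Sdc1* rose 1.85-fold at 0.89 ± 0.11 (adjusted p = 0.000575). In all 6 genes each replicate number was higher with GSK343, and *Tmem176a* lost the call without replicate 1 or 3 of DMSO or replicate 1 or 2 of GSK343 (adjusted p up to 0.0649). *Antxr2* at 0.74, *Irs2* at 0.68, *Rhob* at 0.36, *Nfic* at 0.35, *Enpp1* at 0.26 and *Myadm* at 0.25 on the log2 scale made up the rest of the rises. Of these *Nfic* (adjusted p = 0.0217) and *Enpp1* (adjusted p = 0.0299) lost the call without any single library other than replicate 2 of DMSO, with values up to 0.0846 and 0.111. *Enpp1* also lost it under quantile normalization (adjusted p = 0.0595) and with the compared groups alone (0.105), and *Myadm* lost it without replicate 3 of Pb with DMSO (adjusted p = 0.0517). With the block *Cxcr4* (adjusted p = 0.0114 against 0.0690 without it), *Gfi1* (0.0191 against 0.0793), *Hist1h1c* (0.0342 against 0.0679) and *Rnf122* (0.0462 against 0.149) were also called higher. With the compared groups alone *Cxcr4* (0.00987) and *Rnf122* (0.0143) passed, *Gfi1* did with a pseudocount of 1 (0.0401) or quantile normalization (0.0455), and *Hist1h1c* with all 15 columns (0.0490). *Sirpa* passed without replicate 2 of Pb with DMSO (0.0130 against 0.110), and *Hist1h1c* without replicate 3 of DMSO (0.0347) or replicate 1 of GSK343 (0.0396).

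*Il5ra* fell in Pb by 0.95 ± 0.229 on the log2 scale, to 0.517 of its level with DMSO (adjusted p = 0.0181), in each of 3 replicate numbers. The call was lost without replicate 2 of Pb with DMSO or without replicate 1 or 3 of Pb with GSK343, with adjusted p up to 0.0777. *Nr1d2* fell by 0.34 ± 0.0991 on the log2 scale (adjusted p = 0.0424), also in each of 3 replicate numbers, and lost the call without any single library of the 6 compared (adjusted p from 0.0543 to 0.147), and with a pseudocount of 0.05, no filter, quantile normalization or the compared groups alone (0.0542 to 0.0758). *Zfp36*, at -0.20 ± 0.08 (adjusted p = 0.122), was called lower with the block (adjusted p = 0.0280), and it was the third gene whose libraries with GSK343 all lay below those with DMSO.

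**Figure D4:**
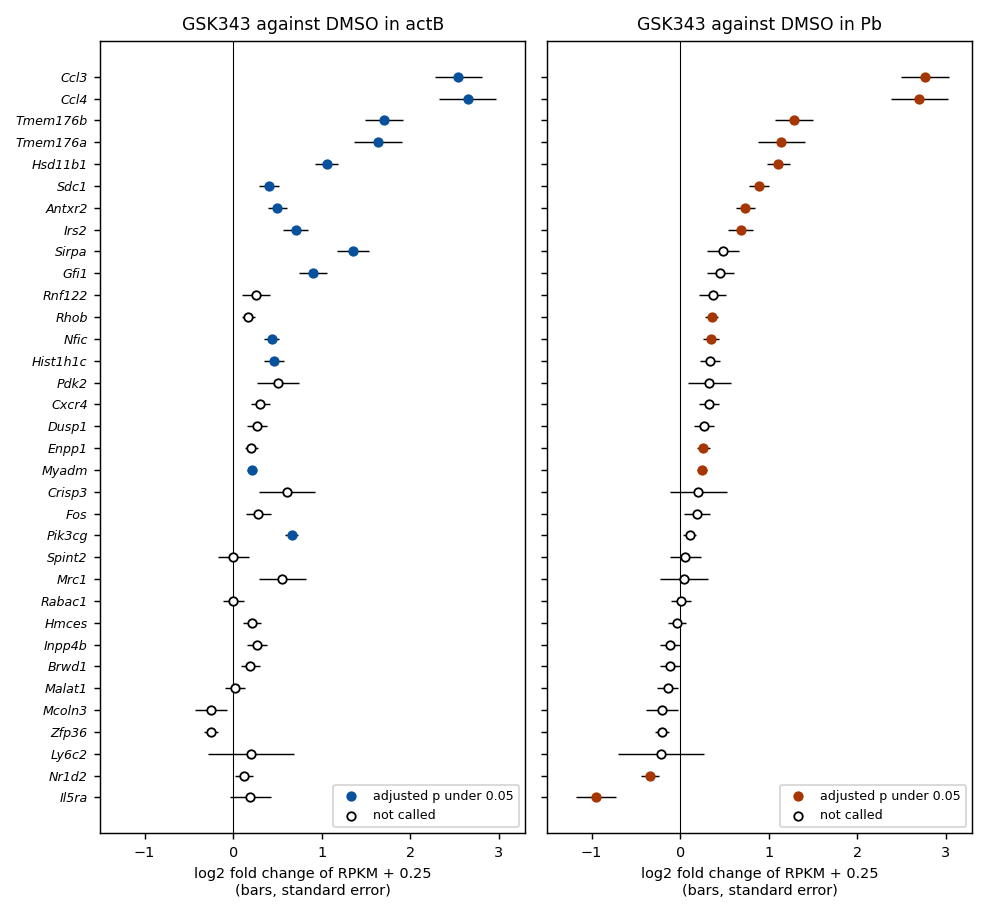
Log2 fold change of RPKM + 0.25 (x axis) of GSK343 against DMSO for each of 34 of the 35 genes in actB (left) and in Pb (right), with bars for the standard error and filled points for an adjusted p under 0.05. *Ccl3* and *Ccl4* lie above 2.5 in both panels, and *Il5ra* lies at -0.95 in Pb.

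Between the cell types, 10 of the 35 genes were called higher with GSK343 in both actB and Pb: *Antxr2*, *Ccl3*, *Ccl4*, *Hsd11b1*, *Irs2*, *Myadm*, *Nfic*, *Sdc1*, *Tmem176a* and *Tmem176b*. A call in actB without one in Pb was made for *Gfi1*, *Hist1h1c*, *Pik3cg* and *Sirpa*, and a call in Pb without one in actB for *Enpp1* and *Rhob*. The test of the difference of the effects called 0 of the 35 genes, against 0.0974% of all genes tested called higher and 0.15% called lower, with 6 at an unadjusted p under 0.05, against 9.0% of all genes tested, and 1 called by edgeR with TMM. This difference contains the contrast that chose the genes. *Pik3cg* came closest, with a smaller effect in Pb by 0.55 ± 0.101 on the log2 scale (-0.55, adjusted p = 0.0533 by limma, 0.0454 with the block and 0.0431 by edgeR with TMM). *Il5ra* had a difference of -1.15 ± 0.32 (adjusted p = 0.201, and 0.0345 with the block), *Sirpa* of -0.87 ± 0.26 (adjusted p = 0.233) and *Sdc1* of 0.49 ± 0.16 (adjusted p = 0.325, and 0.0290 with a pseudocount of 1). For *Ccl3* and *Ccl4* the differences were 0.23 ± 0.38 and 0.05 ± 0.46.

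In the genome, a few of the 35 genes are neighbours. *Ccl3* (chr11:83461346-83462857, minus strand, mm9) and *Ccl4* (chr11:83476086-83478185, plus strand) lie 13229 bases apart, and *Tmem176b* (chr6:48783810-48791373, minus strand) and *Tmem176a* (chr6:48791482-48795363, plus strand) lie 109 bases apart in opposite directions. Within each of these pairs the log2 fold changes with GSK343 differed by less than their standard errors in both cell types. *Sdc1* and *Rhob* lie 271338 bases apart on chr12. Exons of 6 of the genes, *Malat1*, *Hmces*, *Irs2*, *Brwd1*, *Nfic* and *Gfi1*, overlap an exon of another annotated gene on the opposite strand. Whether strand was used in counting is not given, so reads of these pairs cannot be told apart.

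Promoter letters were compared with all genes as a description. Of the 31 members with a RefSeq promoter entry, 15 (48.4%) held the ETS core GGAAGT on either strand, against 26.5% of 27025 genes, and 19 (61.3%) held the GC box GGGCGG, against 38.2%. The KLF letters GGGNGTG were found in 15 (48.4%) against 31.9%, and CCAAT in 10 (32.3%) against 41.1%. The median GC content of these promoters was 59.3% against 52.7%. The AP-1 letters TGANTCA were found in 2 members, *Il5ra* and *Nfic*, and the Blimp-1 letters AGNGAAAG in 3, *Myadm*, *Gfi1* and *Nr1d2*, or 9.68% against 9.91% of all genes. FOXO letters TGTTTAC were found in *Pik3cg*, *Hsd11b1* and *Il5ra*, or 9.68% against 4.05%, and the interferon response motif in none, against 3.99%.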

How the data were processed

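Poly(A) RNA was measured by RNA-seq in nB, and in actB and Pb cultured with DMSO or GSK343. The authors prepared stranded libraries from 500 ng of RNA, mapped the reads to mm9 with TopHat2 and counted reads over the exons of unique Entrez genes. Per library, the authors deposited RPM (reads per 1000000 counted) under a name that says RPKM. Columns add up to 1000000, with 100% of entries within 0.05 reads of a whole read. Dividing by the length in kilobases gave the RPKM used here, and 92 genes without a symbol, with at most 0.0905% of the reads, were left out.

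The 35 genes and all lists were chosen with earlier results of these data known. Replicates 1 and 2 of nB had identical reads for 82.0% of genes and were merged. The 14 libraries were fitted with limma 3.58.1 (trend) in R 4.3.3 on log2(RPKM + 0.25) for the 11299 genes that reached 1 RPKM in 3 or more of 15 columns. Fold changes are on this scale, which understates those of low genes. Tests are two-sided, with Benjamini-Hochberg adjustment over all genes tested and a threshold of 0.05. The comparisons were Pb with GSK343 against actB with GSK343, GSK343 against DMSO in each cell type, and the difference of these effects.

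Replicate numbers were not in the model, and the study's methods do not name them as a term. They pair the samples, since departures from group means correlated between cultured libraries of the same number at r = 0.158 to 0.502, 0.435 to 0.713 and 0.219 to 0.356 for numbers 1, 2 and 3 (6 pairs each), and at -0.603 to 0.370 over 36 pairs of different numbers. Alternatives were pseudocounts of 1 and 0.05, no filter or an RPKM of at least 3, median scaling, quantile normalization, the compared groups alone, all 15 columns, robust eBayes, the replicate block, each library left out, folds of 2 and 4 in the choice of the genes, and edgeR 4.0.16 (quasi-likelihood, TMM or RLE) on the recovered reads of 10787 genes.

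Genes named by rule were the 12 most abundant in nB and Pb, the 10 with the largest difference between Pb and actB with GSK343, the 6 largest rises and 4 largest falls called with GSK343, those in a list, and those nearest the threshold. Of the 9 others, 8 are given for completeness and 1 gene is not reported by name here, although it is in every count. All 35 matched the GENCODE vM1 annotation of mm9, and 31 matched a RefSeq promoter (*Rnf122*, *Ccl4* and *Sirpa* were among those that did not).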

Additional observations from a re-analysis of the deposited data

How the results depend on the processing

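All 35 genes, among them *Sdc1*, whose contrast the sort on CD138 set, were called higher in Pb with GSK343 than in actB with GSK343 under every alternative and without any single library (range 35 to 35), with adjusted p up to 0.0179. Choosing the genes by a fold of 2 gave 109 genes, of which 108 were called higher there, and a fold of 4 gave 15, of which 15 were. Adding 1 in place of 0.25 in the choice left 22 genes. GSK343 against DMSO in actB gave 14 higher, 8 with the compared groups alone, 39 of 109 by a fold of 2, 6 of 15 by a fold of 4, and 10 to 15 without 1 library. It gave 0 lower, and 1 with the replicate block, by edgeR with TMM and by a fold of 2, and 0 to 1 without 1 library. In Pb 12 were higher, 31 by a fold of 2, 5 by a fold of 4, and 9 to 13 without 1 library. There 2 were lower, and 1 with a pseudocount of 0.05, no filter, quantile normalization, the compared groups alone or a fold of 4, and 0 to 1 without 1 library. The difference of the effects gave 0 higher and 1 with a pseudocount of 1, and 0 lower, 2 with the replicate block and 1 with all 15 columns, edgeR with TMM, edgeR with RLE or a fold of 2. Beyond those given with the results, the block changed no call. Fewer genes or samples enter the stricter choices and the compared groups alone, and the cause of the other changes was not tested. No value changed sign while called. In actB with DMSO, counts as low as 15 reads limit the precision.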
